A study of Danio rerio with 40 samples.

Results

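Whole brains of zebrafish homozygous for the naglu frameshift allele A603fs were compared with those of heterozygous siblings after an injection of saline alone. The comparison takes every library whose label gives 0.85% saline as the treatment, which makes 20 of the 40 libraries of the study. They divide into 10 homozygous (A603fs/A603fs) and 10 heterozygous (A603fs/+) fish, each library a different fish, aged 6 months and sampled 7 days after the intraperitoneal injection. All fish carry at least 1 copy of the mutant allele, so no wild-type brain is in the comparison. The 20 remaining libraries came from fish of the same genotypes given 10 µg of ferric citrate in saline, and they enter here through the shared model and as values set beside the saline ones. The question is what the loss of naglu does to brain transcripts without added iron.

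The gene naglu encodes alpha-N-acetylglucosaminidase, a lysosomal enzyme that removes terminal N-acetylglucosamine from heparan sulfate, a sulfated sugar chain of the cell surface and matrix. Lysosomes break such chains down through a fixed order of enzymes, and loss of any member of the order leaves fragments stored in the cell. In humans, loss of this enzyme causes mucopolysaccharidosis type IIIB (Sanfilippo syndrome), a childhood disease in which the brain is the organ most affected. Stored material, activated microglia and disturbed white matter are known features of this disease family.

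The groups were not matched for sex. Of the homozygous fish 7 were female and 3 male, against 2 female and 8 male heterozygous fish. Sex and home tank, of which the labels name 5, were therefore terms of the model. Totals ran from 13100000 to 27700000 counts in homozygous saline libraries and from 11800000 to 33100000 in heterozygous saline libraries. The labels number the fish without saying what the number stands for, and 6 of the homozygous and 4 of the heterozygous saline fish have a number up to 40. Markers of neurons, astroglia, oligodendrocytes and microglia were present in every library, as a whole brain should give. Photoreceptor markers summed to over 20 CPM, the count scaled for library size, in 3 homozygous and 3 heterozygous libraries, against a median of 4.42 CPM in homozygous and 5.07 CPM in heterozygous libraries.

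The library labelled heterozygous saline 5, a male, went against its label. A score was built from the 50 genes that separated the genotypes with the smallest p in the 20 iron libraries alone, scaled so that the mean of heterozygous iron libraries is 0 and that of homozygous iron libraries is 1. On it the homozygous saline libraries lay between 0.69 and 1.18, with a median of 0.96. The heterozygous saline libraries had a median of -0.25, and 9 of them lay between -0.38 and 0.29. The library labelled heterozygous saline 5 scored 1.08. It is kept in its labelled group in every value below unless a sentence says otherwise, and the text gives the value without it where a count of called genes changes. A library of the iron group, heterozygous iron 5, also scored high at 0.84, although it had helped to choose the genes.

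**Figure D1:**
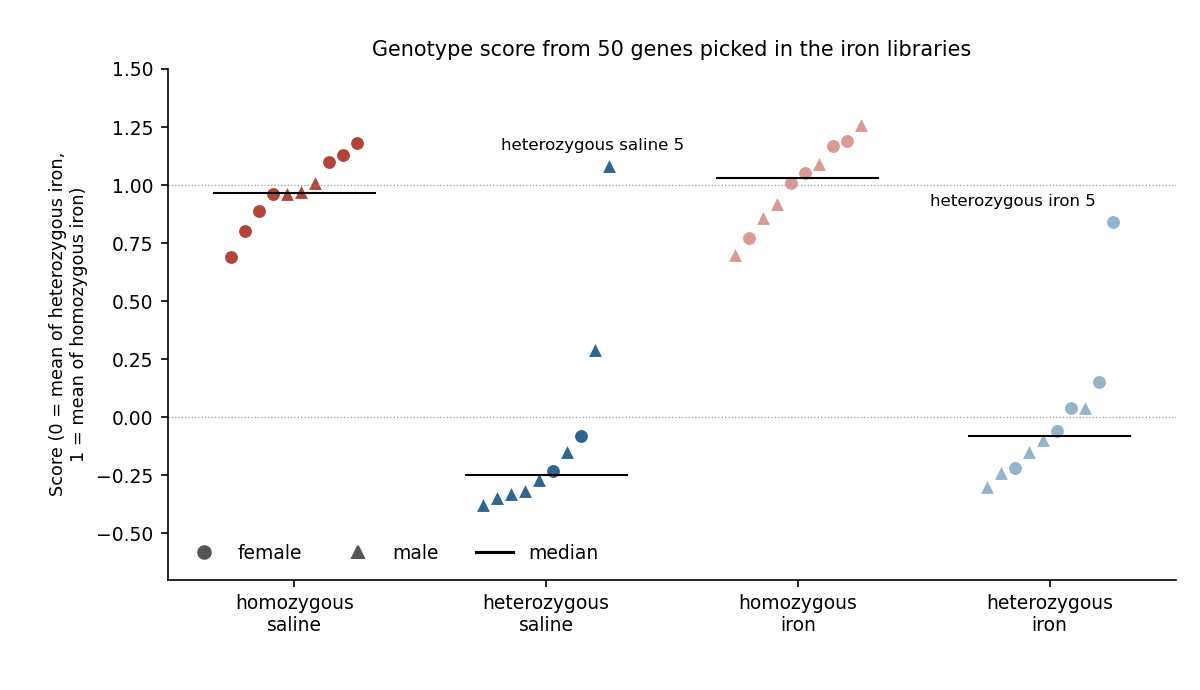
Genotype score of each library (y axis, no unit, 0 and 1 being the means of the heterozygous and homozygous iron libraries) in the 4 groups of 10; circles are females, triangles males and lines medians. Among saline fish the homozygous libraries lie from 0.69 to 1.18, while the library labelled heterozygous saline 5 lies at 1.08, apart from the other 9 of its group.

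The targeted gene did not separate the groups. Levels of naglu were 2.73, 4.48 and 6.09 CPM (lowest, median and highest of 10) in homozygous brains and 2.58, 3.42 and 5.05 CPM in heterozygous brains. The ranges overlapped, and homozygous brains differed by 0.22 on the log2 scale (SE 0.19, edgeR adjusted p = 0.598). Counts per gene do not tell a mutant from a normal transcript, so this level is no check of the genotype labels.

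Across the genome 246 of 19668 tested genes differed between the genotypes (1.25%, edgeR quasi-likelihood test, Benjamini-Hochberg adjusted p under 0.05). Of these 112 rose in homozygous brains (0.569% of genes tested) and 134 fell (0.681%). Without adjustment, 3002 genes had a p under 0.05. Without the library labelled heterozygous saline 5 the count was 449 (2.28% of 19723 genes), 209 rising and 240 falling, among them 245 of the 246. Leaving out a library for lying on the homozygous side can raise the count by itself. The count also moved by more than 1.5 times without heterozygous saline 1 (147 genes), 4 (125), 8 (100) or 9 (111) and without homozygous saline 2 (119), 4 (140) or 10 (139). Of the 246 genes 74 were called in every one of the 20 fits that left out 1 saline library. Each of these fits kept the iron libraries. A fit of the saline libraries alone called far fewer genes, as given below.

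Rising and falling genes differed in size of change and in level. Low-level genes need a larger change to be called, so size and level are tied among called genes. Genes that rose changed by a median of 0.81 on the log2 scale, and 38 of the 112 at least doubled. They were mostly of moderate or low level, with a median of 2.85 for their mean log2 CPM and 16.1% at or above 5. Genes that fell changed by a median of -0.44, and 9 of the 134 reached a 2-fold fall. They were of higher level, with a median of 4.72 and 46.3% at or above 5, where the tested genes have a median of 3.51 and 28% at or above 5. The median change of all tested genes was -0.001, with 49.9% higher in homozygous brains.

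**Figure D2:**
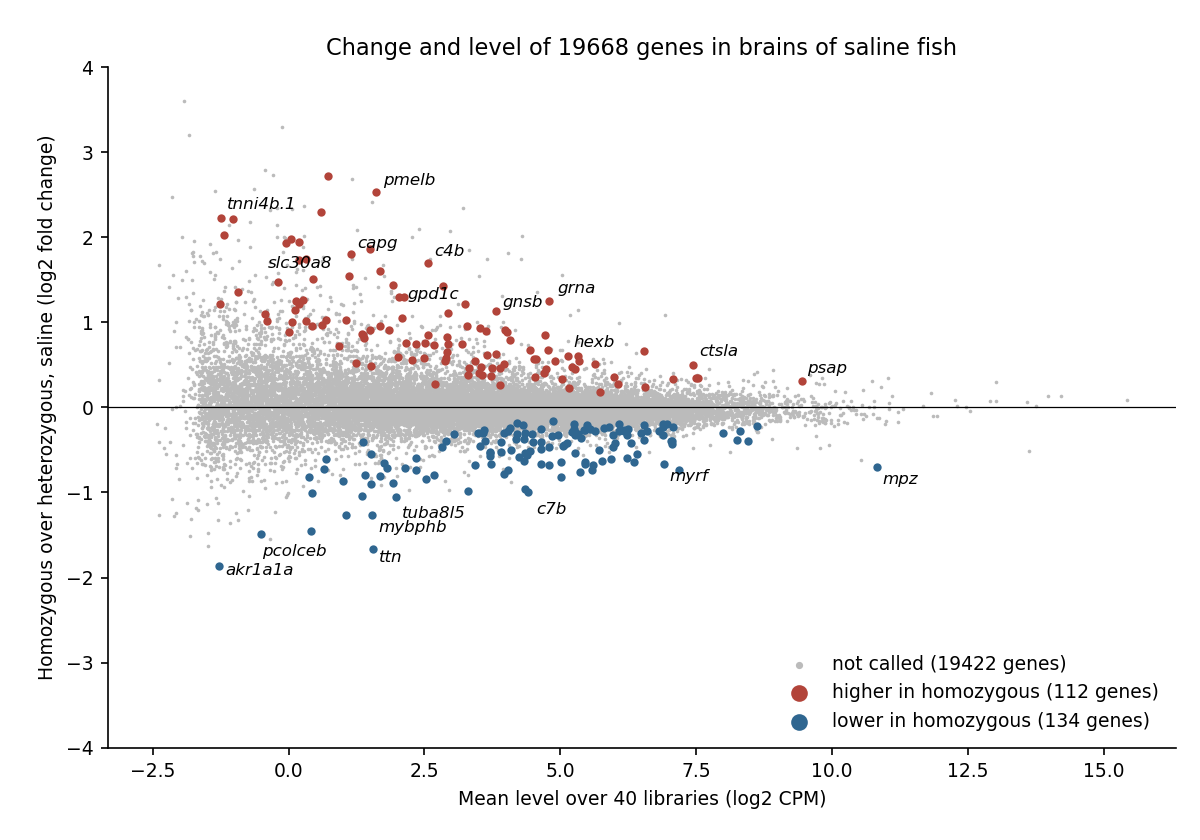
Change of each tested gene (y axis, log2 fold change of homozygous over heterozygous saline brains) against its mean level (x axis, log2 CPM over 40 libraries); red points rose, blue points fell and grey points were not called. The 112 rising genes reach larger changes at lower levels, and the 134 falling genes stay closer to 0 at higher levels.

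Few genes kept the 2 groups wholly apart. The CPM values of the 10 homozygous and 10 heterozygous libraries did not overlap for 39 of the 19668 genes (0.198%), and 30 of these were among the called genes, 24 rising and 6 falling. Without heterozygous saline 5 the ranges were apart for 100 of the 19668 genes, among them 44 of the 112 rising and 33 of the 134 falling genes. Leaving out a library for lying on the homozygous side can separate the ranges by itself.

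Genes of lysosomal sugar and protein breakdown were the largest rising group. Of 63 tested genes of a list of lysosomal hydrolases and membrane proteins 17 rose and 0 fell, the list median being 0.28 on the log2 scale against -0.001 for all genes. Without heterozygous saline 5, 21 rose, and with 1 surrogate variable (an unlabelled factor estimated from the data) in the model the list median was 0.10. The mean log2 CPM of the list lay from 4.34 to 4.83 in homozygous libraries and from 3.78 to 4.29 in heterozygous libraries, so that the ranges did not overlap. The highest heterozygous value was that of heterozygous saline 5. In whole tissue, a change in the number of cells of a type and a change in RNA per cell cannot be told apart, here and in every group below.

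Both subunit genes of beta-hexosaminidase stood among them. The gene hexb, for the beta subunit of beta-hexosaminidase, which removes terminal N-acetylhexosamines, had 40, 45.5 and 48.2 CPM (lowest, median, highest) in homozygous brains and 22.1, 27.9 and 37.1 CPM in heterozygous brains. Every homozygous library lay above every heterozygous one, the highest of which was heterozygous saline 5. The log2 fold change was 0.61 (SE 0.11, adjusted p = 0.00502). The alpha subunit hexa had 7.57, 8.48 and 12 CPM in homozygous and 5.22, 5.65 and 8.24 CPM in heterozygous brains, and rose by 0.58 (SE 0.11, adjusted p = 0.00738). Its ranges overlapped only through heterozygous saline 5, above which 7 of the 10 homozygous libraries lay.

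Of 13 tested genes of heparan sulfate breakdown, the pathway of the mutant enzyme itself, 1 rose and 0 fell, with a list median of 0.12, or 0.04 with 1 surrogate variable. That gene was gnsb, for a paralog of the sulfatase that removes sulfate from N-acetylglucosamine. It had 14.9, 20.4 and 33.3 CPM in homozygous brains and 4.22, 9.48 and 12.4 CPM in heterozygous brains. The groups did not overlap, and the log2 fold change was 1.13 (SE 0.21, adjusted p = 0.00517). Its paralog gns had medians of 107 CPM in homozygous and 98.6 CPM in heterozygous brains (log2 fold change 0.09, SE 0.04, adjusted p = 0.269). Other enzymes of the pathway had log2 fold changes from -0.03 (glb1) to 0.40 (hpse, heparanase), and none of these passed.

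Of the called genes, 4 encode enzymes of free amino sugars or relatives of such enzymes. They were gathered from the called genes and were not counted as a list. Enzymes of this kind that were not called were not counted, so nothing is read about the group. Amdhd2 is the deacetylase of N-acetylglucosamine 6-phosphate, and amdhd2 had 15.3, 17.2 and 24.6 CPM in homozygous brains and 6.38, 11.4 and 16.7 CPM in heterozygous brains. All 10 homozygous libraries exceeded all heterozygous ones but heterozygous saline 5, which exceeded 4 of them. The log2 fold change was 0.63 (SE 0.12, adjusted p = 0.00549). The gene uap1l1, a relative of the pyrophosphorylase that makes UDP-N-acetylglucosamine, had 10.9, 13 and 15.6 CPM in homozygous and 7.14, 8.64 and 11 CPM in heterozygous brains. It rose by 0.54 (SE 0.10, adjusted p = 0.00684), and 9 of 10 homozygous libraries lay above every heterozygous one. Another gene of this chemistry, picked here after its values were seen, was gnpda1, for glucosamine-6-phosphate deaminase. Its range was 3.17 to 7.51 CPM in homozygous libraries and 1.05 to 2.81 CPM in heterozygous libraries, with no overlap, and it rose by 0.96 (SE 0.20, adjusted p = 0.00926). Also picked after its values were seen, renbp, for N-acetylglucosamine 2-epimerase, rose by 0.54 (SE 0.14, adjusted p = 0.0499). Its ranges were 7.55 to 12.6 CPM in homozygous and 3.23 to 7.32 CPM in heterozygous libraries, again apart, and it was called in 5 of the 20 fits that left out a library.

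Other sugar enzymes were galm, man2b2 and gpd1c. The gene galm, for aldose 1-epimerase, had 2.57, 3.71 and 4.90 CPM in homozygous and 1.19, 1.71 and 3.04 CPM in heterozygous brains, and rose by 0.86 (SE 0.15, adjusted p = 0.00488). Of the homozygous libraries 8 lay above every heterozygous one, and heterozygous saline 5, at 1.62 CPM, lay with its labelled group. The gene man2b2, for a mannosidase of glycan breakdown, had 26, 29.8 and 35.2 CPM in homozygous and 15.4, 18.9 and 24.4 CPM in heterozygous brains, with no overlap (log2 fold change 0.57, SE 0.11, adjusted p = 0.00517). The gene gpd1c, for a glycerol-3-phosphate dehydrogenase that links glycolysis to lipid synthesis, had 4.67, 6.57 and 10.4 CPM in homozygous and 1.29, 2.60 and 3.91 CPM in heterozygous brains. These ranges were apart too, and the log2 fold change was 1.3 (SE 0.24, adjusted p = 0.00513). Of the 64 tested genes of its list on fatty acids, glycerol and lipid droplets it was the only member that rose, and 0 fell. When heterozygous saline 5 was left out, 2 rose and 1 fell. The list median was 0.05, or -0.04 with 1 surrogate variable.

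Several called genes encode peptidases, a class that was not counted as a list. Peptidase genes that were not called were not counted, so nothing is read about the class. Prolidase, which splits dipeptides ending in proline, is encoded by pepd, and this gene had 31.5, 33.8 and 51 CPM in homozygous and 19.4, 25.3 and 27 CPM in heterozygous brains. The groups were apart, and pepd rose by 0.54 (SE 0.10, adjusted p = 0.00517). Cathepsin Z, from ctsz, had 15, 19.6 and 34.6 CPM in homozygous and 8.23, 11.3 and 13.9 CPM in heterozygous brains, and cathepsin A, from ctsa, had 23.3, 26.1 and 40.9 CPM in homozygous and 14.1, 18.2 and 21.3 CPM in heterozygous brains. Neither overlapped, and the log2 fold changes were 0.91 (SE 0.18) and 0.57 (SE 0.12). Of the called genes of lysosomal proteins, 4 abundant ones moved less on the log2 scale, though low-level genes need a larger change to be called. The gene ctsd rose by 0.34 (SE 0.07), lgmn by 0.33 (SE 0.08) and ctsla by 0.50 (SE 0.12). Outside the peptidases psap, for the precursor of the saposins that help lipid breakdown, rose by 0.31 (SE 0.08). Of these 4, the adjusted p of ctsd, at 0.0134, was the smallest. The progranulin gene grna, for a secreted and lysosomal growth factor, had 28.7, 37.6 and 71.4 CPM in homozygous and 3.84, 16.8 and 28.7 CPM in heterozygous brains, with heterozygous saline 5 at the top of its group (log2 fold change 1.25, SE 0.31, adjusted p = 0.0334).

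Genes of pigment organelles, which are relatives of the lysosome, rose in brain tissue. Of 27 tested genes of a melanosome and pigment cell list 6 rose and 0 fell, with a list median of 0.27, and 7 rose without heterozygous saline 5. With 1 surrogate variable the median was 0.07. The gene pmelb, for the protein whose fibrils form the inner scaffold of the melanosome, had 5.59, 8.46 and 17.9 CPM in homozygous and 0.477, 1.24 and 3.56 CPM in heterozygous brains. The groups did not overlap, the highest heterozygous library was heterozygous saline 5, and the log2 fold change of 2.53 (SE 0.41, adjusted p = 0.00195) was 5.76-fold. Its paralog pmela did not pass, at 1.71 on the log2 scale (SE 0.51, adjusted p = 0.0913).

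The other 5 members that rose were of several functions. The tetraspanin genes tspan36 and tspan10 had log2 fold changes of 1.21 (SE 0.27) and 1.75 (SE 0.40). The gene gpnmb, for a membrane glycoprotein of melanosomes and of macrophage lysosomes, rose by 1.94 (SE 0.49). The gene rab32 (ENSDARG00000029036), for a GTPase that sends cargo to lysosome-related organelles, rose by 0.85 (SE 0.21). The gene hps1, for a subunit of the complex that activates such GTPases, rose by 0.52 (SE 0.13). Their adjusted p-values ran from 0.0183 for tspan36 to 0.0396 for gpnmb, and tspan36 alone of the 5 kept the groups apart, with 9.07 to 30.5 CPM in homozygous and 2.21 to 8.46 CPM in heterozygous libraries. Of the 27 tested members of the list 22 were higher in homozygous brains and 5 lower. Those that did not pass included tyrp1 (ENSDARG00000056151) at 1.3 (SE 0.46, adjusted p = 0.162), oca2 at -0.21 and mlph at -0.43. The 7 melanophore markers summed to 7.34 to 14.9 CPM in homozygous and 4.80 to 9.39 CPM in heterozygous libraries, overlapping ranges, and 0 of the 4 that could be tested was called. The part of pigment cells left on the brain in these results was not tested.

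**Figure D3:**
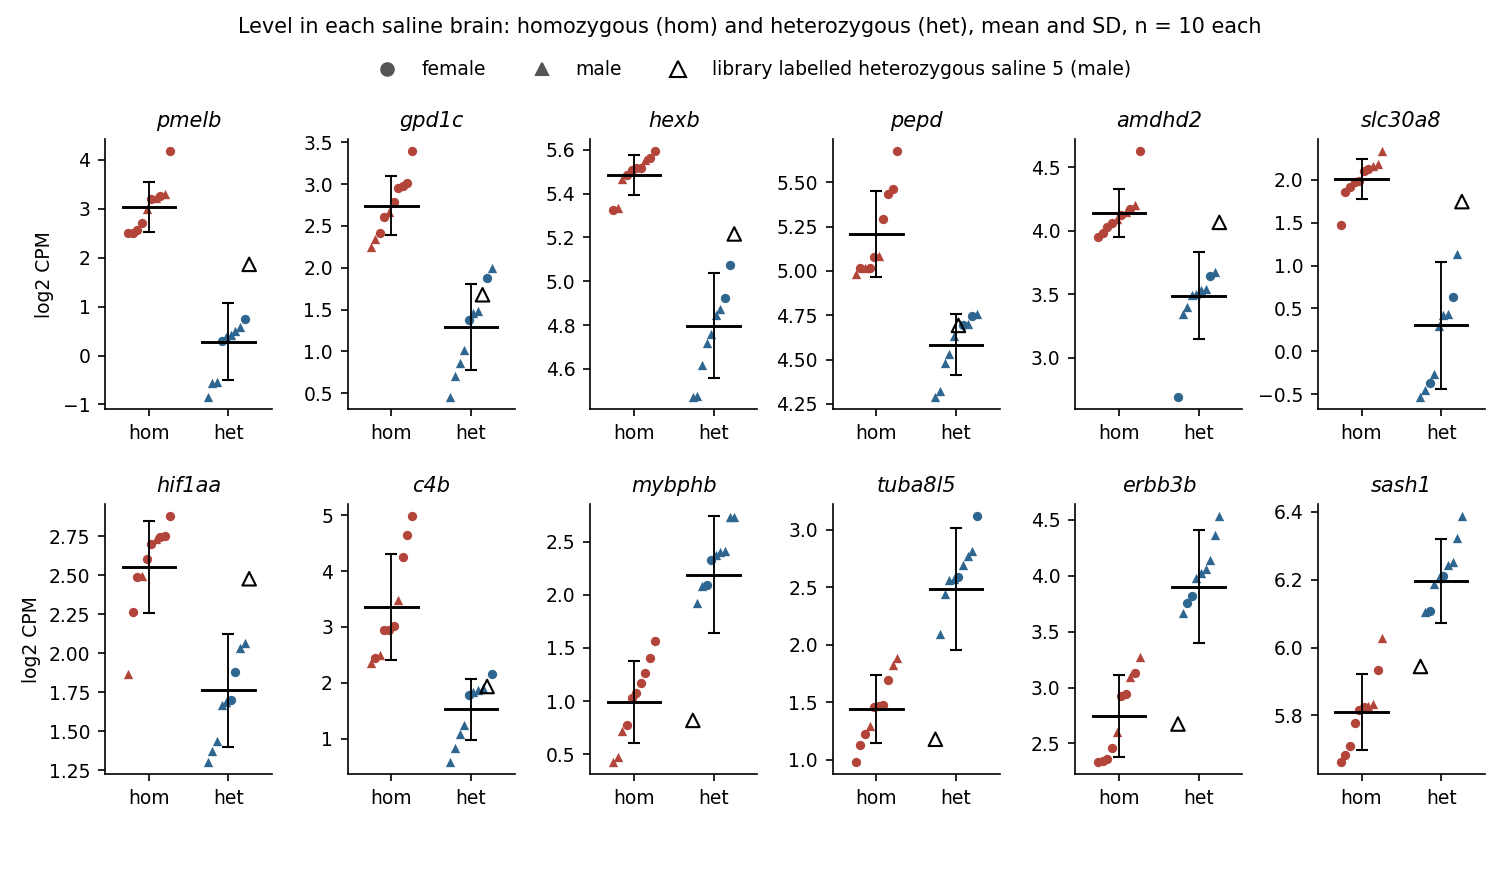
Level of 12 called genes in each saline brain (y axis, log2 CPM, each panel with its own range that does not start at 0), homozygous left of heterozygous; bars show mean and SD of 10 libraries, circles females and triangles males. The open triangle, heterozygous saline 5, lies at the homozygous side of its group for pmelb, hexb, slc30a8, hif1aa, mybphb and erbb3b, and among its group for gpd1c, pepd and c4b.

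Of 20 tested zinc transport and metallothionein genes 1 rose and 1 fell, and the list median was 0.02. Of all tested genes 0.569% rose and 0.681% fell. The gene slc30a8, whose product loads zinc into secretory granules of mammalian islet cells, had 2.69, 4.06 and 4.95 CPM in homozygous and 0.612, 1.2 and 3.28 CPM in heterozygous brains. Of the homozygous libraries 9 lay above every heterozygous one, and all 10 lay above all but heterozygous saline 5 (log2 fold change 1.54, SE 0.31, adjusted p = 0.00797). The gene slc30a1 (ENSDARG00000053896), for the exporter that carries zinc out across the cell membrane, had 1.71, 2.69 and 3.80 CPM in homozygous and 3.15, 4.43 and 6.13 CPM in heterozygous brains, and fell by 0.71 on the log2 scale (SE 0.16, adjusted p = 0.0164). Its paralog slc30a1 (ENSDARG00000005463) had medians of 34.3 CPM in homozygous and 33.2 CPM in heterozygous brains and did not pass (adjusted p = 0.385).

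The hypoxia list of 37 tested genes had a median of 0.04, or -0.04 with 1 surrogate variable, and 0 fell. Where 0.569% of all tested genes rose, hif1aa was the only member to rise. It encodes a paralog of the alpha subunit of the oxygen-sensing factor HIF-1, and had 3.58, 6.21 and 7.27 CPM in homozygous and 2.39, 3.16 and 5.49 CPM in heterozygous brains. Of the homozygous libraries 8 lay above every heterozygous one (log2 fold change 0.76, SE 0.15, adjusted p = 0.00683). The gene with the symbol hif1a had a log2 fold change of 0.03 (SE 0.07), vhl of 0.03 and egln3, which the factor induces in other animals, of 0.48 (SE 0.22, adjusted p = 0.301), so no other member passed.

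Genes of iron and glucose metabolism gave single calls, where 1.25% of all tested genes were called. The gene hephl1a, for a ferroxidase of the hephaestin family, rose by 0.36 (SE 0.09, adjusted p = 0.0332), with medians of 71.4 CPM in homozygous and 53.6 CPM in heterozygous brains, 1 of 38 tested iron genes. The enolase gene eno3 rose by 0.47 (SE 0.11, adjusted p = 0.0322), with medians of 44.2 CPM in homozygous and 29.7 CPM in heterozygous brains, 1 of 37 tested glycolysis genes. In the iron list 0 fell and in the glycolysis list 0 fell, and the medians were 0.04 and 0.01. The lysosomal cholesterol carrier npc2 (ENSDARG00000090912) rose by 0.55 (SE 0.14, adjusted p = 0.0333) and was the only called member among 40 cholesterol genes, of which 2 rose without heterozygous saline 5. The other entry, npc2 (ENSDARG00000096979), had a log2 fold change of 2.37 and did not pass. The median of the cholesterol list was 0.12.

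Immune genes were higher on the median, with few calls. Of 36 tested microglia and macrophage genes 2 rose and 0 fell, where 0.569% of all tested genes rose. The 2 were hexb, already counted among the lysosomal genes, and the chemerin receptor gene cmklr1 (ENSDARG00000090890). Of the 36 genes 32 were higher in homozygous brains, and the list median was 0.56. When heterozygous saline 5 was left out, 4 rose. The gene cmklr1 had 3.70, 6.92 and 17 CPM in homozygous and 0.544, 2.42 and 5.92 CPM in heterozygous brains, overlapping ranges (log2 fold change 1.3, SE 0.34, adjusted p = 0.0418). It was called in 5 of the 20 fits that left out a library. The scavenger receptor gene marco, at 1.75 (SE 0.52, adjusted p = 0.0909), and the macrophage factor gene spi1, at 0.96 (SE 0.30, adjusted p = 0.101), did not pass. The mean log2 CPM of the list was 3.14 to 4.35 in homozygous and 1.57 to 3.55 in heterozygous libraries, with 2.83 in heterozygous saline 5, which here lay with its labelled group. The lowest value, 1.57, was that of heterozygous saline 10 alone, and the next was 2.71. The same library was lowest of its group for 20 of the 41 lists, among them the lysosomal (3.78, next 3.88), astroglia (5.83, next 6.58), smooth muscle (2.08, next 2.87) and endothelial (2.32, next 2.82) ones. Without it the list median was 0.49 for microglia (0.56 with it), 0.27 for lysosomal genes (0.28 with it), 0.11 for astroglia (0.18 with it), 0.07 for smooth muscle (0.10 with it) and 0.04 for endothelium (0.10 with it).

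The immune difference was uneven between the sexes and the model choices. The list median was 0.65 in the fit of female libraries alone and 0.21 in that of male libraries alone, a difference that was not tested as such. With 1 surrogate variable in the model it was 0.08, and in the fit of the 20 saline libraries alone it was 0.32. After iron the list median was 0.08. The actin-capping gene capg (ENSDARG00000099672), strong in macrophages of mammals, had 2.13, 4.17 and 8.60 CPM in homozygous and 0.476, 0.941 and 2 CPM in heterozygous brains, with no overlap (log2 fold change 1.80, SE 0.36, adjusted p = 0.0088). Of its list of 42 tested actin regulators 1 rose and 0 fell, with a median of 0.11, and 5 rose without heterozygous saline 5. The chemokine receptor gene ccr9 (ENSDARG00000055186) had 1.56, 3.15 and 16 CPM in homozygous and 0.136, 0.413 and 1.84 CPM in heterozygous brains (log2 fold change 2.30, SE 0.55, adjusted p = 0.0275). It was the only called member of 9 tested lymphocyte genes, and the 6 lymphocyte markers summed to at most 4.41 CPM in homozygous and 2.14 CPM in heterozygous libraries.

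Of 16 tested complement genes c4b rose and c7b fell, and 12 were higher, with a list median of 0.32. Of all tested genes 0.569% rose and 0.681% fell. With 1 surrogate variable the direction of the list turned, with 7 of 16 higher and a median of -0.05. The gene c4b, for a component of the classical and lectin pathways, had 5.03, 7.85 and 31.5 CPM in homozygous and 1.42, 3.44 and 4.36 CPM in heterozygous brains. The ranges were apart, and the log2 fold change was 1.70 (SE 0.36, adjusted p = 0.0121). The gene c7b, for a protein of the membrane attack complex, had 10.1, 13.3 and 24.4 CPM in homozygous and 11.4, 32.5 and 45.4 CPM in heterozygous brains (log2 fold change -1.0, SE 0.26, adjusted p = 0.0427). Its lowest heterozygous value was that of heterozygous saline 5. Genes of the C1q complex, c1qa, c1qb and c1qc, had log2 fold changes of 1.07, 0.90 and 0.70 with adjusted p-values from 0.329 to 0.393 and did not pass.

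The interferon list had the highest median of the 41 lists and no called gene. All 25 tested members were higher in homozygous brains, with a median of 1.38, and 0 passed. The smallest adjusted p was 0.129, for ifit10 at 2.57 (SE 0.85). The spread within groups was wide: isg15, a ubiquitin-like protein induced by interferon, had 0.723, 18.8 and 63.9 CPM in homozygous and 0.794, 1.66 and 16.2 CPM in heterozygous brains, so that both groups reached from under 1 CPM to above 10 CPM. The list median was 0.44 in male and 1.36 in female libraries, 1.77 in fish numbered up to 40 and 0.22 in those above 40. Among saline fish numbered up to 40, all heterozygous ones were male and all homozygous ones but homozygous saline 4 female. With 1 surrogate variable the list median was 0.00.

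Genes of the oligodendrocyte, the cell that wraps axons in myelin, formed the largest falling group. Of 33 tested members 10 fell and 0 rose, with a list median of -0.38, and 18 fell without heterozygous saline 5. The gene erbb3b, for a neuregulin receptor of the lineage, had 4.97, 6.75 and 9.62 CPM in homozygous and 6.30, 15.9 and 23.1 CPM in heterozygous brains. Every homozygous library lay below the 9 heterozygous libraries other than heterozygous saline 5, and 5 lay below that library as well (log2 fold change -0.98, SE 0.18, adjusted p = 0.00502). Further falls were in cldn19 at -0.74 (SE 0.16), myrf, the factor that switches on myelin genes, at -0.66 (SE 0.15), sox10, a lineage factor, at -0.64 (SE 0.13) and tspan2 at -0.38 (SE 0.08). The myelin protein zero gene mpz, a main protein of fish brain myelin, had a log2 fold change of -0.70 (SE 0.16). That of mag, for a glycoprotein of the myelin membrane facing the axon, was -0.40 (SE 0.10).

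Of the 33 tested members 24 were lower in homozygous brains, and some of these did not pass. They included mbpa at -0.51 (SE 0.15, edgeR adjusted p = 0.0896) and ugt8 at -0.53 (SE 0.16, adjusted p = 0.0989). The 9 members above 0 did not pass either. The highest was tppp (ENSDARG00000104399), at 1.13 (SE 0.87, adjusted p = 0.544) with medians of 0.404 CPM in homozygous and 0.097 CPM in heterozygous brains, and its paralog tppp (ENSDARG00000105029) fell by 0.33 (SE 0.08, adjusted p = 0.0296). The gene cnp, for a phosphodiesterase of myelin, had a log2 fold change of 0.27 (adjusted p = 0.0825), and olig1 of 0.02. Among 12 tested genes of the precursor cell only sox10 fell, and 2 fell without heterozygous saline 5. The 6 oligodendrocyte markers summed to 9940, 14332 and 21425 CPM (lowest, median, highest) in homozygous and 11589, 22944 and 33111 CPM in heterozygous libraries, 11589 CPM being heterozygous saline 5. Of these markers 3 were called, each falling. The sulfatide-making enzyme gene gal3st1 (ENSDARG00000062711), whose lipid is concentrated in myelin, had 9.18, 10.5 and 15.1 CPM in homozygous and 10.5, 18 and 20.9 CPM in heterozygous brains, and fell by 0.57 on the log2 scale (SE 0.12, adjusted p = 0.0122). It was the only called member of 45 sphingolipid genes, of which 2 fell without heterozygous saline 5. The choline transporter gene slc44a1 had 96.8, 119 and 129 CPM in homozygous and 107, 164 and 186 CPM in heterozygous brains (log2 fold change -0.43, SE 0.07, adjusted p = 0.00262).

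The alpha-tubulin gene tuba8l5 had 1.90, 2.68 and 3.62 CPM in homozygous and 2.18, 5.91 and 8.59 CPM in heterozygous brains, and all homozygous libraries lay below the heterozygous ones other than heterozygous saline 5 (log2 fold change -1.05, SE 0.17, adjusted p = 0.00195). Its relative tuba8l3 fell by 0.76 (SE 0.18) and dctn1 (ENSDARG00000056753), for the large subunit of the dynein activator dynactin, by 0.28 (SE 0.06). These 3 of 39 tested tubulin and motor genes fell and 0 rose, where 0.681% of all tested genes fell. The list median was -0.06, or 0.00 with 1 surrogate variable. Outside the list, the kinesin gene kif21a had 187, 224 and 252 CPM in homozygous and 228, 291 and 335 CPM in heterozygous brains (log2 fold change -0.30, SE 0.06, adjusted p = 0.011), and cep170, for a centrosomal protein, fell by 0.38 (SE 0.07, adjusted p = 0.00738). The gene wdr1, whose product helps take actin filaments apart, rose by 0.24 (SE 0.06, adjusted p = 0.0311).

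Genes named for muscle were among the largest changes, in both directions. The gene mybphb, for myosin-binding protein H, had 1.27, 1.99 and 2.89 CPM in homozygous and 1.69, 5.04 and 6.58 CPM in heterozygous brains. All homozygous libraries lay below the 9 heterozygous libraries other than heterozygous saline 5, which lay at 1.69 CPM (log2 fold change -1.26, SE 0.23, adjusted p = 0.00513). The titin gene ttn (ENSDARG00000000563) had 0.687, 2.02 and 3.05 CPM in homozygous and 2.40, 6.26 and 10.6 CPM in heterozygous brains (log2 fold change -1.67, SE 0.39, adjusted p = 0.0216). These were the 2 that fell of 28 tested sarcomere genes, where 0 rose and the median was -0.10. Of all tested genes 0.681% fell. The fall of this ttn entry was -2.49 in the fit of males and -0.61 in that of females. The other entry, ttn (ENSDARG00000028213), did not pass, at -0.49 (SE 0.39, edgeR adjusted p = 0.562). Its medians were 0.648 CPM in homozygous and 0.626 CPM in heterozygous brains. The gene pdlim3 (ENSDARG00000014248), for a PDZ and LIM protein of the muscle Z disc, fell by 0.74 (SE 0.14, adjusted p = 0.00683). The troponin I gene tnni4b.1 had 0.201, 0.778 and 1.34 CPM in homozygous and 0, 0.159 and 0.343 CPM in heterozygous brains. It rose by 2.23 (SE 0.42, adjusted p = 0.00517), a fitted value that depends on the prior count at such low levels. The 10 skeletal muscle markers summed to 32.1 to 66.4 CPM in homozygous and 35 to 106 CPM in heterozygous libraries, overlapping ranges, and 0 of the 7 tested was called.

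Vessel and matrix genes gave falls of single members, where 0.681% of all tested genes fell. The gene angpt2b, for the vessel ligand angiopoietin 2, had 1.97, 2.68 and 3.84 CPM in homozygous and 2.12, 5.52 and 7.23 CPM in heterozygous brains (log2 fold change -0.89, SE 0.18, adjusted p = 0.01). It was the only called member of 32 endothelial genes, whose median was 0.10, or -0.06 with 1 surrogate variable. The gene pcolceb, for an enhancer of collagen maturation, had 0.364, 0.850 and 1.60 CPM in homozygous and 1.03, 1.73 and 7.50 CPM in heterozygous brains (log2 fold change -1.45, SE 0.32, adjusted p = 0.016). It was the only one called of 62 matrix and meningeal genes, with a median of 0.11, or -0.11 with 1 surrogate variable. The secreted protease gene htra1 (ENSDARG00000032831) fell by 0.78 (SE 0.15, adjusted p = 0.00738).

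Among signalling and other genes with the smallest p, several falls were small and tight. The scaffold gene sash1 (ENSDARG00000007179) had 50.6, 56.5 and 65.1 CPM in homozygous and 61.5, 73.9 and 83.6 CPM in heterozygous brains, with 9 of 10 homozygous libraries below every heterozygous one (log2 fold change -0.32, SE 0.06, adjusted p = 0.00513). The kinase gene mast3 had a log2 fold change of -0.42 (SE 0.08), sh3bp5l (ENSDARG00000007136) of -0.25 (SE 0.05), the scaffold gene cass4 of -0.81 (SE 0.16) and the cyclin gene ccnp of -1.01 (SE 0.20). The aldehyde reductase gene akr1a1a, at 0.0524 to 0.367 CPM in homozygous and 0.218 to 1.28 CPM in heterozygous libraries, had the largest fall of the named genes (log2 fold change -1.87, SE 0.33, adjusted p = 0.00502). The transcription factor gene sall1 (ENSDARG00000075891), at -0.90 (SE 0.22, adjusted p = 0.0336), was called in 7 of the 20 fits that left out a library. The synaptic endocytosis gene pacsin1 (ENSDARG00000032865) fell by 0.22 on the log2 scale (SE 0.06, adjusted p = 0.0398).

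Rising genes outside the lists included hs1bp3, for a PX-domain protein, tmem179ba and ifrd1. The gene hs1bp3 rose by 1.03 (SE 0.19, adjusted p = 0.00513), with 2.08, 3.15 and 3.79 CPM in homozygous and 0.850, 1.22 and 2.47 CPM in heterozygous brains. The gene tmem179ba ranged over 18.4 to 30.5 CPM in homozygous and 4.49 to 15.8 CPM in heterozygous libraries, with no overlap, and rose by 0.89 (SE 0.16, adjusted p = 0.00513). The transcription regulator gene ifrd1 had medians of 213 CPM in homozygous and 162 CPM in heterozygous brains (log2 fold change 0.35, SE 0.08, adjusted p = 0.0183). The replication helicase gene mcm6 (ENSDARG00000057683) rose by 0.65 (SE 0.16, adjusted p = 0.0296).

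Several large families had medians slightly off 0 and 0 genes called. Without heterozygous saline 5, 1 autophagy gene rose and 2 fell, and the other families named here still had 0 called. Cytosolic ribosomal protein genes were higher in 76 of 77 cases, with a median of 0.13, and the smallest adjusted p, for rpl22l1, was 0.0914. Voltage-gated channel genes were higher in 3 of 70 cases, and their median was -0.12. Synaptic vesicle genes were higher in 8 of 54 cases (median -0.10), glutamate neuron genes in 5 of 42 (median -0.09), GABA neuron genes in 5 of 35 (median -0.17) and autophagy genes in 11 of 51 (median -0.10). Genes of a family rise and fall together in a library, so these counts are not independent observations. These directions were the same under RLE and upper quartile scaling and in the DESeq2 and voom fits. The median of all genes moved by at most 0.01 under them. All of the family medians came closer to 0 with 1 surrogate variable. The ribosomal median was then 0.05, that of voltage-gated channels -0.06 (23 of 70 higher), of glutamate genes -0.03 (15 of 42), of GABA genes -0.07 (9 of 35) and of autophagy genes -0.05 (13 of 51), and the synaptic vesicle median turned to 0.02 (31 of 54). The 11 neuron markers summed to 7786 to 9488 CPM in homozygous and 8161 to 11976 CPM in heterozygous libraries, overlapping ranges.

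Of all 41 lists, 22 held at least 1 called gene and 19 held none. Leaving out heterozygous saline 5, 3 of these 19 held calls, which were those of autophagy, 2 rises in glutathione and ferroptosis and 1 rise in chaperones. The called genes were mostly outside the lists, with 54 on some list and 192 on none. Of all tested genes 1.25% were called, and nothing is read about a list from a single call. Oxidative phosphorylation (83 tested, median 0.03), chaperones (59, median 0.06), glutathione and ferroptosis (49, median 0.11), clock genes (43, median -0.02), immediate early genes (36, median -0.04) and neuropeptides (39, median -0.13) were lists without a call. So were astroglia (28, median 0.18), smooth muscle and pericytes (18, median 0.10), monoamine and cholinergic genes (40, median -0.08), steroid and sex genes (24, median 0.00), haemoglobin (4, median -0.01) and the retina, lens and pineal list (26, median 0.37). In the voom fit the retina, lens and pineal median was 0.09, with 17 of 26 higher against 25 of 26 by edgeR. The mean log2 CPM of that list had a median of -0.31 and a highest value of 2.00 in homozygous libraries. In heterozygous libraries these were -0.45 and 1.43. In the ependyma list of 34 (median 0.06) the single call was tuba8l5. With 1 surrogate variable the medians of astroglia, smooth muscle and ependyma turned to -0.02, -0.01 and -0.07, and that of haemoglobin was -0.21. Some medians differed in sign between the fits of each sex. The haemoglobin median was 0.72 in males and -1.30 in females, and that of neuropeptides -0.21 in males and 0.14 in females. The endothelial median was 0.16 in males and -0.24 in females. These differences between the sexes were not tested for lists.

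**Figure D4:**
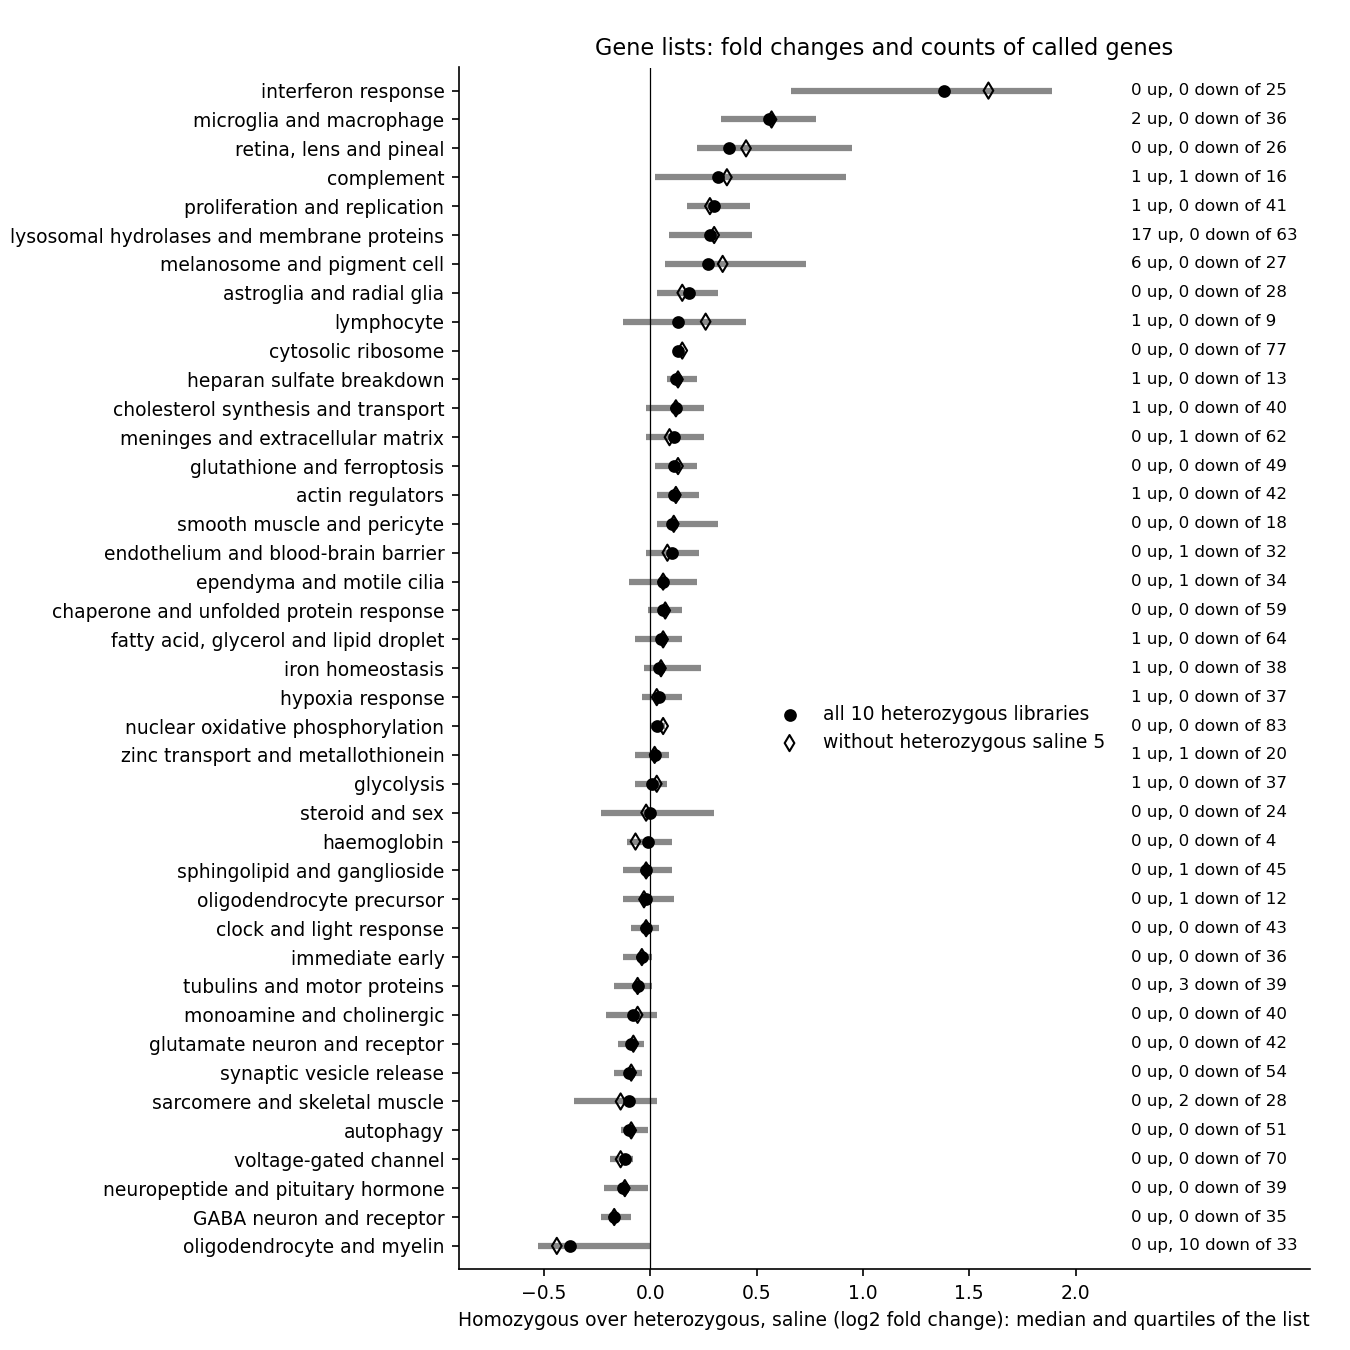
Fold changes of 41 gene lists (x axis, log2 fold change of homozygous over heterozygous saline brains); dots are list medians, grey bars span the quartiles, diamonds are medians without heterozygous saline 5, and the text at the right counts called genes among those tested. Lysosomal genes have 17 rises, oligodendrocyte genes 10 falls, and the interferon list has the highest median with 0 calls.

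Genes on the chromosome of naglu share inheritance with the allele, so that variants near it can differ between the genotypes. By symbol, naglu lies on chromosome 24 in RefSeq's annotation. Of 171 called genes with a chromosome 7 were on it (4.09%), against 376 of 13935 tested genes with one (2.7%). The rising members were cst14a.2, a cystatin, at 0.45 (SE 0.10), the vitamin B12 transporter gene abcd4 at 0.48 (SE 0.12) and nub1 at 0.83 (SE 0.21). The falling members were the GTPase gene rala at -0.42 (SE 0.09), cd226 at -0.68 (SE 0.14), arhgap28 at -0.79 (SE 0.19) and crp1 at -0.74 (SE 0.18). Of the 7, cst14a.2 kept the groups apart, with 27.5 to 36.2 CPM in homozygous and 18.9 to 27 CPM in heterozygous libraries. Among named genes of the other groups above with a chromosome in that annotation, none lies on this one. Called genes without a chromosome could not be placed.

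Because sex was uneven between the groups, fits within each sex were made. They called 0 genes in males and 0 in females by edgeR, with 1096 and 1633 genes at an unadjusted p under 0.05. All 246 genes had the same direction in both fits, which reuse the libraries that chose the genes. The rising genes had a median log2 fold change of 0.62 in males and 0.87 in females, and the falling genes of -0.42 in males and -0.38 in females. The test of genotype by sex over all 40 libraries called 0 genes by edgeR (1006 at an unadjusted p under 0.05), 0 by voom and 1 by DESeq2, cdkn1a, named here after its values were seen. Without the sex term the count of called genes was 1360. In the model with it, 7 of the 246 genes were also called for sex itself, as were 479 of all 19668 tested genes.

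Among the named genes, pmelb and hexb had higher medians in homozygous fish of each sex, in small groups. The level of pmelb had medians of 6.47 CPM in 7 homozygous females and 1.37 CPM in 2 heterozygous females, and of 9.17 CPM in 3 homozygous males and 1.24 CPM in 8 heterozygous males. For hexb the medians were 45.6 CPM in homozygous and 31.9 CPM in heterozygous females, and 44.1 CPM in homozygous and 26.6 CPM in heterozygous males. For mcm6 the fits gave log2 fold changes of 0.93 in males and 0.06 in females. Those of sox10 were -0.66 in males and -0.19 in females. The proliferation list, of which mcm6 was the only called gene among 41 (2 rose without heterozygous saline 5), had a median of 0.30. Of its 41 genes 38 were higher, and with 1 surrogate variable the median was 0.23. In the fits of each sex the medians were 0.59 in males and -0.23 in females, where the saline libraries held 2 heterozygous females. The difference between the sexes was not tested for the list.

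The model was also fitted to each side of a split by fish number. All heterozygous saline fish numbered up to 40 were male, and all homozygous ones but homozygous saline 4 were female. Genotype after saline is therefore nearly confounded with sex among those fish. Fits of fish numbered up to 40 and above 40 called 0 genes each by edgeR, with 1863 and 1312 genes at an unadjusted p under 0.05. All 246 genes had the same direction in both fits, which reuse the libraries that chose the genes. With a term for this split in the full model, 305 genes were called. Fitted to the 20 saline libraries alone, with the same sex and tank terms, the model called 3 genes, and 127 when the tank term was left out. The main comparison also uses the iron libraries, for the sex and tank terms and for the spread. Why the fit of the saline libraries called fewer genes was not tested.

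The genotype difference after iron is set beside that after saline, from separate fish in the same fit. After iron 27 genes were called (0.137% of 19668), 24 of them among the 246. All 112 rising genes had a positive value after iron, with a median of 0.43, and 133 of the 134 falling genes a negative one, with a median of -0.29. The gene slc30a8 had a log2 fold change of 1.54 after saline and 1.48 after iron, tnni4b.1 of 2.23 after both, hif1aa of 0.76 after saline and 0.74 after iron, and mybphb of -1.26 after saline and -1.44 after iron. These 4 had nearly the same value in both or a larger one after iron. The gene c4b had 1.70 after saline and 0.78 after iron, cmklr1 had 1.3 after saline and 0.46 after iron, dctn1 had -0.28 after saline and -0.05 after iron, and pcolceb had -1.45 after saline and -0.56 after iron. The genes were chosen on their saline values, and nothing is read from the smaller size after iron. The test of genotype by treatment called 0 genes by edgeR (498 at an unadjusted p under 0.05), 0 by DESeq2 and 0 by voom, so no gene was shown to differ in its genotype effect between saline and iron. List medians after iron (after saline in brackets) were 0.19 (0.28) for lysosomal, 0.08 (0.56) for microglia and 0.82 (1.38) for interferon genes. They were -0.27 (-0.38) for oligodendrocyte, 0.02 (0.13) for ribosomal and -0.06 (-0.17) for GABA neuron genes. For heparan sulfate breakdown both were 0.12, and the retina, lens and pineal list had 0.86 (0.37). The saline value of the retina, lens and pineal list was 0.09 in the voom fit. The difference between saline and iron was not tested for lists. The iron values keep heterozygous iron 5, whose genotype score was 0.84, in its labelled group. Its mean log2 CPM was 4.67 for lysosomal, 4.09 for microglia and 4.27 for interferon genes. The highest homozygous iron values, all in homozygous iron 9, were 4.64, 4.02 and 5.10. How far this library moves the iron medians was not tested. The iron count without it and heterozygous saline 5 is given in the closing section.

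**Figure D5:**
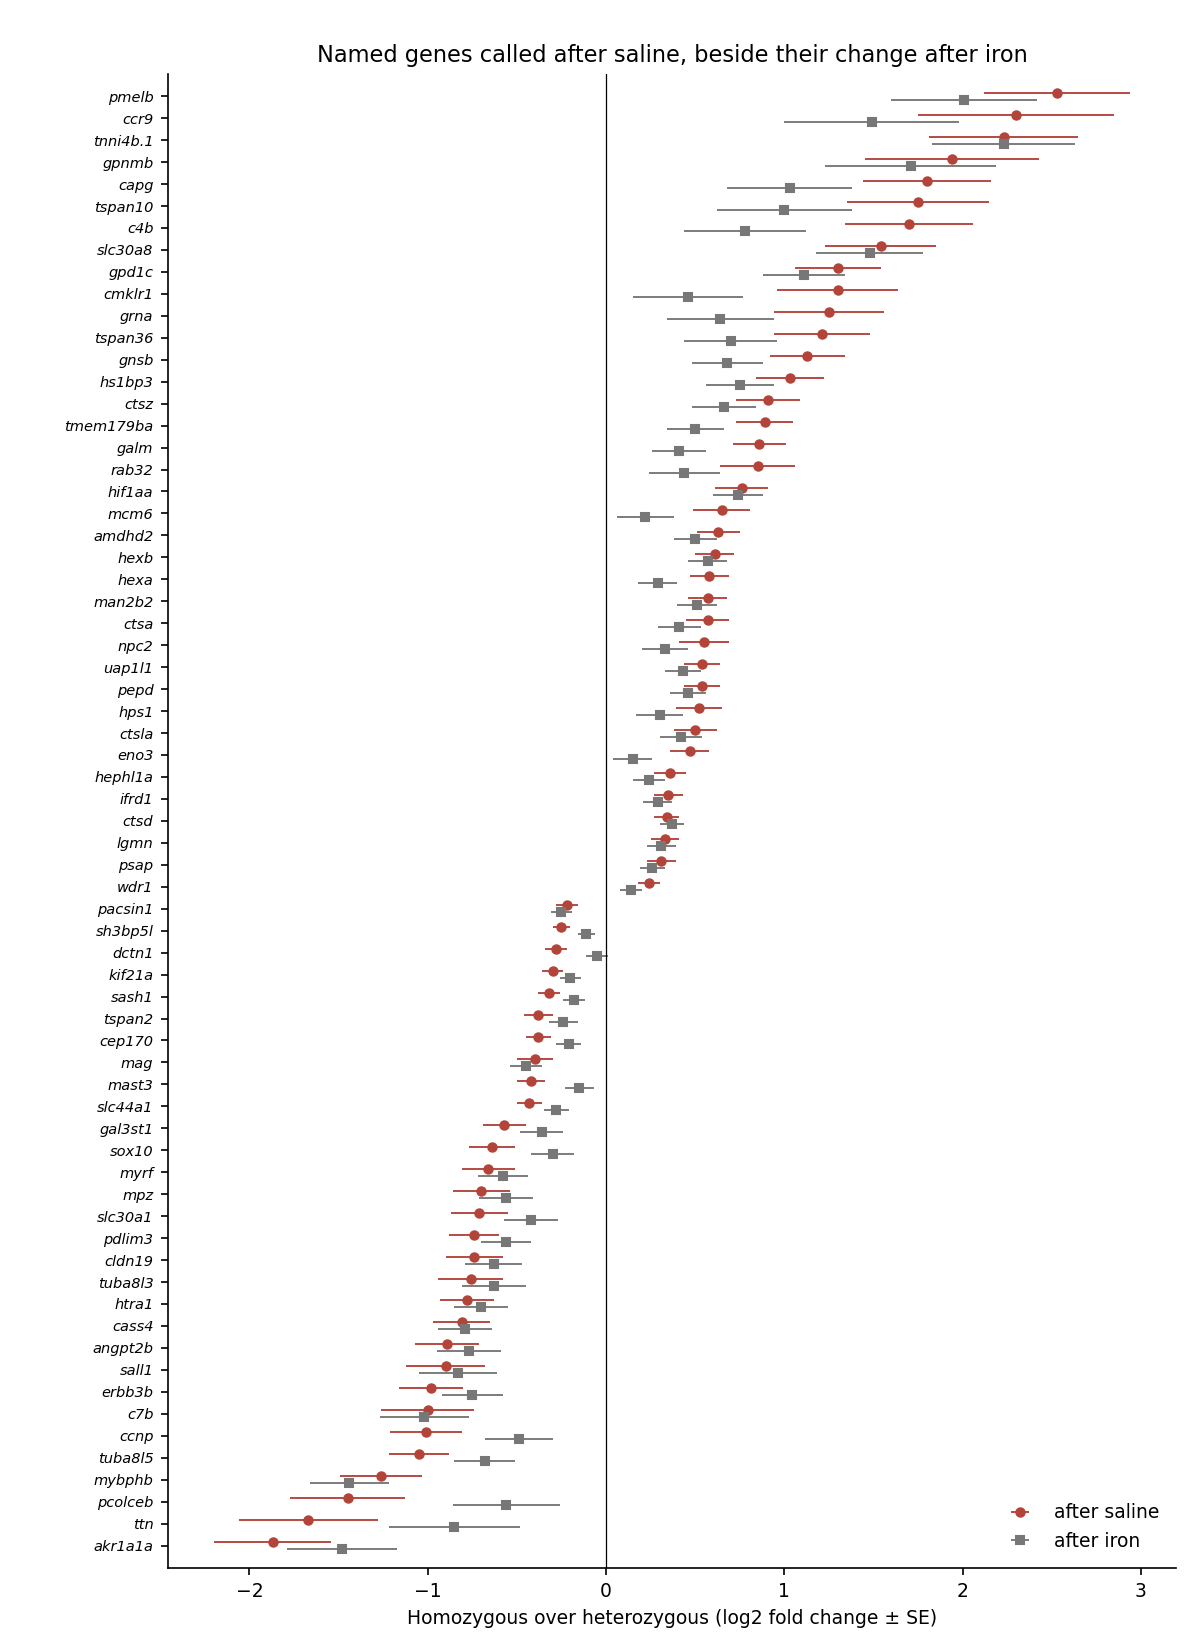
Log2 fold change of homozygous over heterozygous brains (x axis, bars 1 SE) for the named genes called after saline (red circles) and the same genes after iron (grey squares), sorted by the saline value. All squares lie on the same side of 0 as their circles and most lie nearer to it, while slc30a8, tnni4b.1, hif1aa and cass4 are nearly equal in both.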

How the data were processed

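The authors deposited raw counts per Ensembl gene for 32057 genes in 40 libraries. The tools named in the submitters' processing notes are featureCounts, UMI-tools, STAR and fastp, with GRCz11 as build. Their versions and strand setting are not given in any source used, so overlapping genes and close paralogs are uncertain. Symbols matched 28988 genes (90.4%), and chromosomes came by symbol from RefSeq's GRCz12tu, another assembly.

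Counts were tested with edgeR 4.0.16 (R 4.3.3, filterByExpr, TMM, robust quasi-likelihood) on all 40 libraries, with group, sex and home tank as terms (9 coefficients, 31 residual degrees of freedom). P-values were adjusted over 19668 genes, and CPM uses TMM-adjusted totals. The code was tested on simulated data. Of 780 library pairs 0 were identical.

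The gene lists and the naming rule were chosen with earlier results of these data known. Named are naglu; the 15 rising and 15 falling genes of smallest p, 8 of largest change (mean log2 CPM of at least 1) and 6 of highest level each way; and up to 6 called genes per list. Alternatives used limma 3.58.1, DESeq2 1.42.0 and sva 3.50.0. Replicate numbers only name libraries. A few genes meeting this rule are left out of the text and plots.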

Additional observations from a re-analysis of the deposited data

Results flagged for a closer look

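Single libraries stood apart from their group, on log2 CPM, in 20 of 138 tests of the named genes (highest or lowest library against Dixon's 95% critical value for 10 samples). Chance flags about 1 in 20 groups, and the tests share libraries. Of the 20, 10 concern heterozygous saline 5.

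That library was lowest of its group for tuba8l5 (1.18, the nearest library 2.09), slc44a1 (6.74, nearest 7.25), erbb3b (2.67, nearest 3.67), mybphb (0.82, nearest 1.92), pdlim3 (ENSDARG00000014248; 1.80, nearest 2.60), myrf (6.25, nearest 7.04) and sall1 (ENSDARG00000075891; 1.14, nearest 1.81). It was highest for ifrd1 (7.87, nearest 7.39), lgmn (7.18, nearest 6.96) and rab32 (ENSDARG00000029036; 1.59, nearest 0.99). In each case it lay on the side of the homozygous group.

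Homozygous saline 5 was highest of its group for amdhd2 (4.62, nearest 4.21), lgmn (7.59, nearest 7.33) and sall1 (ENSDARG00000075891; 1.90, nearest 1.23), and homozygous saline 1 for pmelb (4.17, nearest 3.29). Heterozygous saline 10 was lowest for tmem179ba (2.19, nearest 3.12), tspan36 (1.19, nearest 2.19), eno3 (3.98, nearest 4.83) and grna (1.97, nearest 3.53). Heterozygous saline 7 was lowest for amdhd2 (2.69, nearest 3.35), and heterozygous saline 3 was highest for pcolceb (2.92, nearest 1.59).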

How the results depend on the processing

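The count of 246 genes depended on the model more than on the scaling. It was 100 with 1 surrogate variable (83 of them among the 246), 494 by DESeq2, 389 without the home tank term and 1360 without the sex term. Fits of the 20 saline libraries called 3 genes with the tank term and 127 without it, and those of males, females, fish numbered up to 40 or above 40 called 0 each. Leaving out 1 saline library gave 100 to 449 genes. Without heterozygous saline 5 and heterozygous iron 5 together the counts were 586 after saline, and 196 against 27 after iron. Genotype by sex gave 1 gene by DESeq2 against 0. RLE (240) and upper quartile (223) scalings stayed within 1.5 times, as did voom (213), another model on the TMM scaling. The cause of these shifts was not tested. No direction of a named gene's change was reversed under any setting run. No paired analysis was possible because the replicate numbers only name libraries in order and no label pairs fish across groups. Low levels limit genes under about 1 CPM, where few counts stand behind each value.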
